A study of Mus musculus with 24 samples.

Results

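Cyp26b1, Crabp1, Crabp2, Aldh1a2 and Rarb make, carry, sense and break down retinoic acid, and their RNA was followed in cultured mouse cortical neurons exposed to the proteasome inhibitor lactacystin. The members were chosen by gene symbol from a table of array signals, and they are 5 of 18735 genes, with 6 of the 24613 probes that hold values. They were picked with their signals in these same arrays known, so their levels are given as a description with no test. Of the 5 genes, 3 (Cyp26b1, Crabp1 and Rarb) passed the filter on dim probes. Cyp26b1 was the one that stood far above background on all 24 arrays, and it was several-fold lower in both groups given the low dose than at the high dose.

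The study used primary neocortical cultures from Swiss albino mouse fetuses taken at gestation day 15 to 16, which were kept for 5 days and then treated. Lactacystin was diluted from a stock in dimethyl sulfoxide. The high dose, 1 µM, acted for 5, 8, 15 or 24 h, the low dose, 0.1 µM, acted for 15 or 24 h, and each of these 6 treated groups has 3 arrays. The 6 control arrays came from cultures labelled as untreated, with no time or vehicle named, so culture time and solvent cannot be told apart from treatment. Biotin-labelled cRNA was read on Illumina MouseRef-8 bead arrays, 8 to a slide on 3 slides, and each slide held 2 controls and 1 array of each treated group.

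Retinoic acid is a small signal made from vitamin A. Retinol is oxidized to retinaldehyde and then, by enzymes such as the one encoded by Aldh1a2, to retinoic acid. In the cytoplasm the carriers encoded by Crabp1 and Crabp2 bind it. In the nucleus it switches receptors such as the product of Rarb, which act as pairs with a retinoid X receptor on DNA. Cyp26b1 encodes a cytochrome P450 that oxidizes retinoic acid and so removes it. In the fetal forebrain the meninges are known as a source of retinoic acid, and both Rarb and the Cyp26 genes are known to respond to it.

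The receptors bind pairs of a short motif in direct repeat, so the stretches before an annotated transcript start of the receptor gene and of the gene with the widest range of levels are shown. The 250 bases before the start, 5′ to 3′ on the strand of the gene, come from RefSeq promoters of build GRCm38.p6. Rarb lies on the minus strand at chr14:16575477-16575726 and Cyp26b1 on the minus strand at chr6:84593811-84594060. The table gives 1 start per gene. The Rarb window lies inside the annotated span of the gene, so it precedes an internal transcript start, and the Cyp26b1 window lies partly inside its gene. Capitals mark a direct repeat of 2 motifs. The motif searched was AGGTCA, its variant AGTTCA, or either with another first letter (GGGTCA in place of the former, GGTTCA in place of the latter), on both strands and spaced by 1, 2 or 5 bases.
Rarb: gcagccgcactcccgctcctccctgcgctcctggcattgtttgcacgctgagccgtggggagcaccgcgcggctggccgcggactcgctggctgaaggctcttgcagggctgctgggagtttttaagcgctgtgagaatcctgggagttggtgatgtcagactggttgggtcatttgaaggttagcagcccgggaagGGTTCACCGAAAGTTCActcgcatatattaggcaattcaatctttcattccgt
Cyp26b1: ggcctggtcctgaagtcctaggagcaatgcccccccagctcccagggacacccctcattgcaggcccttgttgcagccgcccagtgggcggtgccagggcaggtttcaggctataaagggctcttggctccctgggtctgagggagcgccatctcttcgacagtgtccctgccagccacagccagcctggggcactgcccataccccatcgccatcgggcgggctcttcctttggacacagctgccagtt
In Rarb 1 such repeat was found, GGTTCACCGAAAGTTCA, with a spacing of 5 bases, at positions -53 to -37 counted from the start site. A repeat of this spacing occurred in 29 of 32841 promoter windows of the same length (0.0883%), against 0.164% for a spacing of 1 and 0.174% for a spacing of 2. The windows of Cyp26b1, Crabp1 and Aldh1a2 held none of these repeats and no single copy of the motif either, while 38.6% of all windows hold at least 1. Of the 5 members, 4 had an entry in the promoter table. A match is a matter of letters and was not tested for binding, and no match says nothing of sites elsewhere.

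The arrays had median signals from 52.2 to 81 intensity units, and 11291 to 12418 probes per array were detected, meaning a detection p of at most 0.01. After background correction and quantile normalization 10903 genes were tested, and values named normalized are log2 intensities from that step. Of 11 listed markers of cortical projection neurons 10 were tested, and every one of those 10, among them Neurod6 and Slc17a7, was detected on all 6 controls. For the 18 treated arrays the slide in the labels is not that of the scanner column with the same values, which is of the same group, so slides named here are those of the scanner column and no group is affected. The glial markers Gfap, Aqp4, Sox10 and Pdgfra were also detected on all 6 controls, so RNA cannot be assigned to neurons alone. In such bulk samples fewer cells of a type and less RNA per cell cannot be told apart. Nothing in the labels says that arrays of 1 group came from separate cultures, so p-values measure the spread between these samples, and the number of arrays limits the precision.

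Cyp26b1, the enzyme that clears retinoic acid, was low at 0.1 µM and not at 1 µM. Its signals at 0.1 µM were 312, 254.6 and 260.7 intensity units at 15 h. At 24 h of that dose they were 298.5, 333.2 and 295.9. All 6 arrays of the low dose thus lay below the lowest control, which read 398.8. The controls ran from 398.8 through a median of 936.45 to 2178.7, a range wider than that of any treated group.

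At 1 µM Cyp26b1 stayed within the range of the controls at every time. The signals were 1245.7, 1270 and 995.6 at 5 h and 835.9, 1124.8 and 851.3 at 8 h. They were 1707.4, 1913.1 and 1311.5 at 15 h, the highest of the treated groups, and 1199.9, 1121.5 and 974 at 24 h. No array of the high dose overlapped an array of the low dose in signal. Within an array the standard error over the beads of the probe was 2.2% to 5.06% of the signal, which covers bead noise and not the spread between samples.

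**Figure D1:**
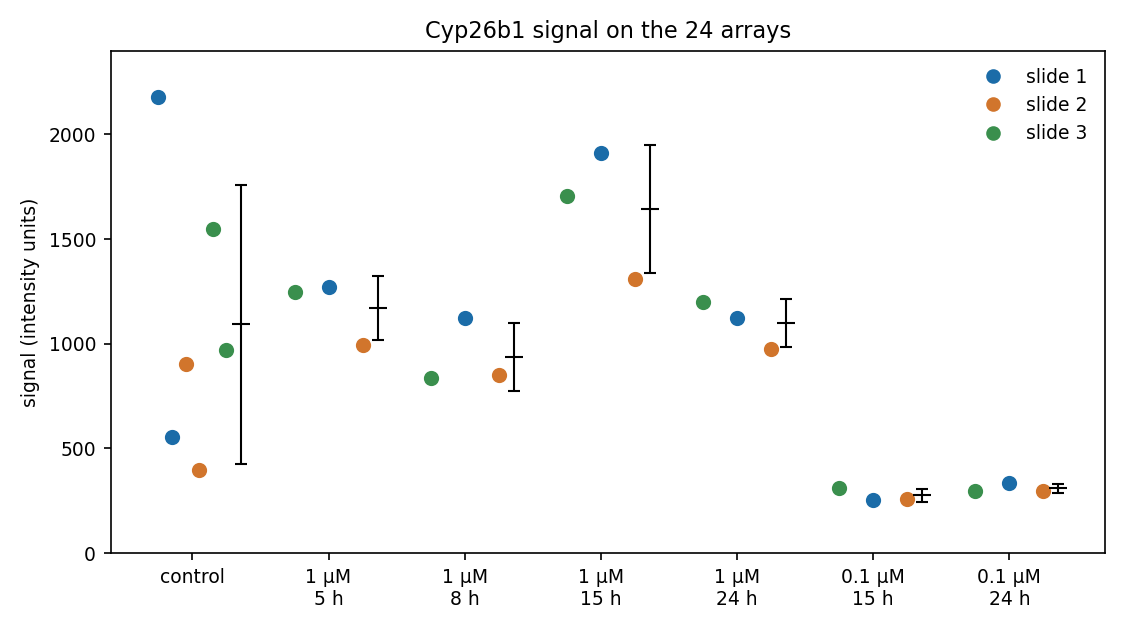
Signal of the Cyp26b1 probe (vertical axis, intensity units, linear) on each of the 24 arrays by group; points are arrays coloured by slide, and the bar beside each group is mean ± SD. The 6 arrays at 0.1 µM lie between 254.6 and 333.2, below all controls, which spread from 398.8 to 2178.7.

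On the normalized scale the order of the group means of Cyp26b1 was 8.02 at 0.1 µM 15 h, 8.40 at 0.1 µM 24 h, 9.60 at 1 µM 8 h, 9.67 in the controls, 10.08 at 1 µM 24 h, 10.15 at 1 µM 5 h and 10.61 at 1 µM 15 h. Their SDs were 0.14, 0.10, 0.10, 0.78 (n = 6), 0.13, 0.09 and 0.22, with n = 3 for each treated group. Neighbours in this order overlapped from 1 µM 8 h to 1 µM 5 h. The low-dose groups were separate from each other on this scale and from 1 µM 8 h, and 1 µM 15 h was separate from 1 µM 5 h. In signal before normalization the 2 low-dose groups overlapped.

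Against the controls Cyp26b1 differed by -1.65 ± 0.28 (log2, SE) at 0.1 µM 15 h, which is 3.15-fold lower, and by -1.28 ± 0.28 at 24 h, which is 2.42-fold lower. The arrays of the groups did not overlap in either comparison. Among all tested genes 14.3% had ranges that did not overlap with the controls at 0.1 µM 15 h and 6.34% at 24 h. At 1 µM the share was 10.5% at 5 h, 30.6% at 8 h, 43.2% at 15 h and 45.8% at 24 h. For Cyp26b1 at 1 µM the differences from the controls were 0.48 at 5 h, -0.08 at 8 h, 0.94 at 15 h and 0.41 at 24 h, each ± 0.28, and all 4 groups overlapped the controls. The same controls enter all 6 of these differences, so the values are not independent of each other. These SEs rest on a variance shared by all 24 arrays, while Cyp26b1 varied far more among the controls than in any treated group.

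Set against each other the doses share no array. Cyp26b1 was higher at 1 µM than at 0.1 µM by 2.59 ± 0.33 at 15 h, or 6.03-fold, with a 95% interval of 1.91 to 3.27 on the log2 scale. At 24 h the difference was 1.68 ± 0.33, or 3.22-fold, with an interval of 1.01 to 2.36. The groups did not overlap at either time, and the background is high here, since 61.4% of all tested genes did not overlap between the doses at 15 h and 63.6% at 24 h. The difference at 24 h minus that at 15 h was -0.91 ± 0.46, with a 95% interval of -1.87 to 0.05. Cyp26b1 was chosen with these values known, so these intervals do not allow for that choice and are no test.

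Within the slides the direction for Cyp26b1 was the same on each at 0.1 µM, between the doses and at 1 µM 5, 15 and 24 h, but not at 8 h, with -0.35, 0.42 and -0.30 on slides 1, 2 and 3. The difference of 0.1 µM 15 h from the 2 controls of the same slide was -2.08, -1.17 and -1.71. At 0.1 µM 24 h it was -1.48, -0.82 and -1.52. Between the doses the slides gave 2.97, 2.28 and 2.53 at 15 h and 1.63, 1.5 and 1.93 at 24 h. The difference at 1 µM 15 h was 0.89, 1.11 and 0.81 against the mean of the 2 controls of the same slide. It was positive on each although the arrays of that group overlapped the pooled controls. On slide 1 the array of 1 µM 15 h, at 10.828, lay between control 1, at 10.866, and control 2, at 9.008. On slides 2 and 3 it lay above both controls.

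**Figure D2:**
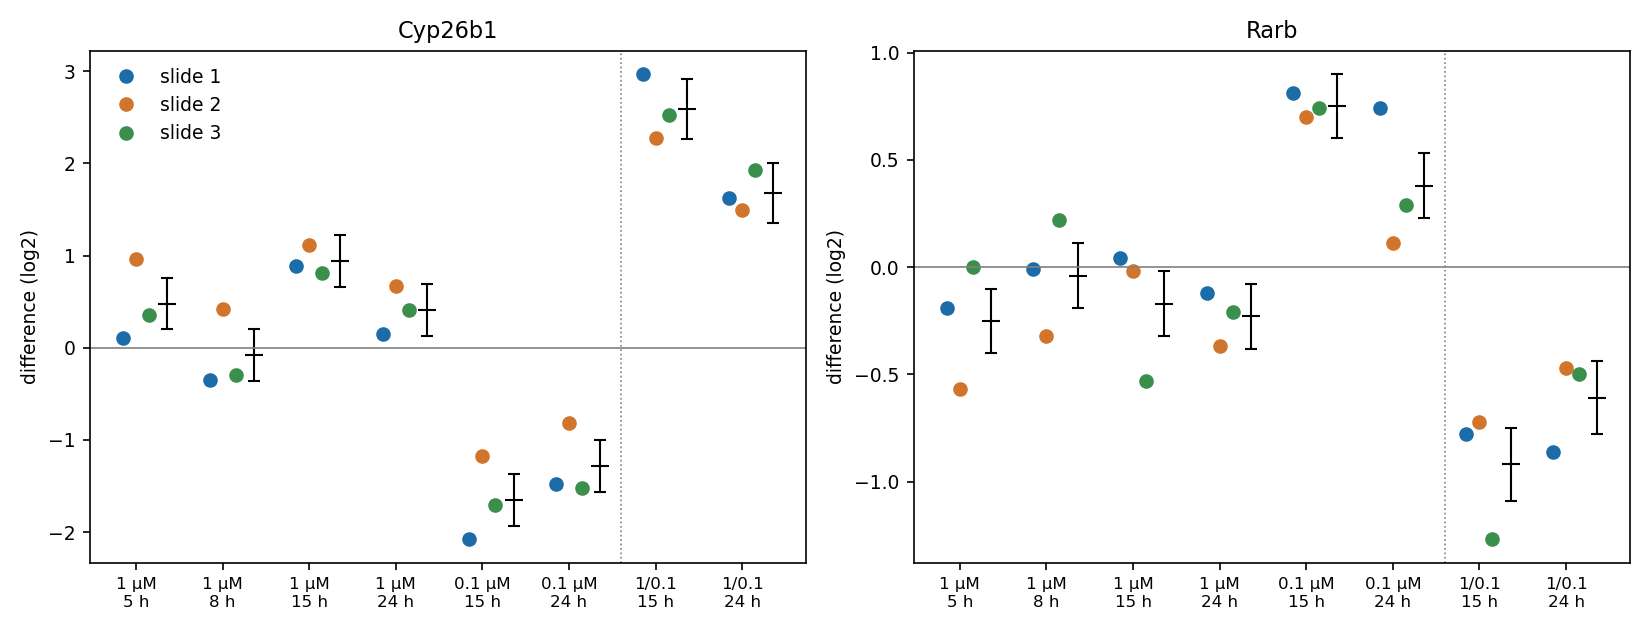
Log2 differences of Cyp26b1 (left) and Rarb (right) taken within each slide (coloured points) and in the fit over all 24 arrays (bar, estimate ± SE), for each treated group against the controls and, right of the dotted line, for 1 µM against 0.1 µM. Cyp26b1 is below 0 on all slides at 0.1 µM and above 0 on all slides between the doses, and Rarb does the reverse between the doses.

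The controls differed widely in Cyp26b1. Controls 1, 3 and 5, which per the labels lay in position A of their slides, read 2178.7, 903.2 and 1547. Controls 2, 4 and 6 in position B read 556.9, 398.8 and 969.7. Position A was thus the higher one on each slide, by 1.86, 1.29 and 0.20 on the normalized scale. Of all tested genes 16% were higher in position A on all 3 slides. By the mean of position A minus position B, 1 gene, Zfp871, stood above Cyp26b1, and genes higher in position B were not ranked. The SD of Cyp26b1 among the controls, 0.784, was above that of 99.5% of tested genes, whose median was 0.219. Each treated group kept 1 position of its own, so position and treatment cannot be told apart, and the part of position in the Cyp26b1 levels was not tested. The difference at 0.1 µM 15 h was -1.42 without control 1 and -1.86 without control 4, and these were the extremes when any single array was left out.

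Crabp1 encodes a carrier that binds retinoic acid in the cytoplasm, and its signal was close to background. It was detected on 9 of 24 arrays. In the controls its signals were 72.2, 50.4, 59.6, 50.3, 116.4 and 100.6, and it was detected on controls 1, 5 and 6. Controls 5 and 6, on slide 3, stood above the other 4.

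At 5 h of 1 µM Crabp1 read 70.4, 91.2 and 66.8 and at 8 h 72.5, 89.7 and 61.2, with all 6 arrays detected. It was detected on no array at 15 or 24 h of either dose. Signals there ran from 49.5 to 56.3 at 1 µM 15 h, from 50.8 to 64.1 at 1 µM 24 h, from 50.4 to 62.3 at 0.1 µM 15 h and from 47.3 to 58.1 at 0.1 µM 24 h. All 4 groups overlapped the controls, of which 3 of 6 measured the gene, so no fold is given. At 5 h the normalized difference from the controls was 0.42 ± 0.22 and at 8 h 0.12 ± 0.22, again with overlap.

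Within slides the lower Crabp1 at 15 and 24 h rested on slide 3. At 1 µM 15 h the differences from the controls of the same slide were -0.12, -0.19 and -1.34 on slides 1, 2 and 3. At 1 µM 24 h they were -0.39, 0.02 and -1. At 0.1 µM they were -0.02, -0.07 and -0.98 at 15 h and -0.05, -0.06 and -1.07 at 24 h. Without controls 5 and 6 the measured differences moved from -0.55 to -0.22 at 1 µM 15 h and from -0.36 to -0.02 at 0.1 µM 15 h. At 24 h they moved from -0.46 to -0.12 at 1 µM and from -0.39 to -0.06 at 0.1 µM.

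Crabp2 encodes the carrier that hands retinoic acid to its receptors, and it was detected on 1 of 24 arrays, the array of 1 µM 24 h that read 68.1. Over all arrays its signal ran from 34.7 to 70.1 with a median of 46.1, and the highest control values, 65.6 and 70.1, again belonged to controls 5 and 6. Aldh1a2 encodes the main enzyme that makes retinoic acid in the embryo, and it was detected on no array, with signals from 37.8 to 64.4 and a median of 51.2. For both genes every group was at or near background, so no fold is given.

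**Figure D3:**
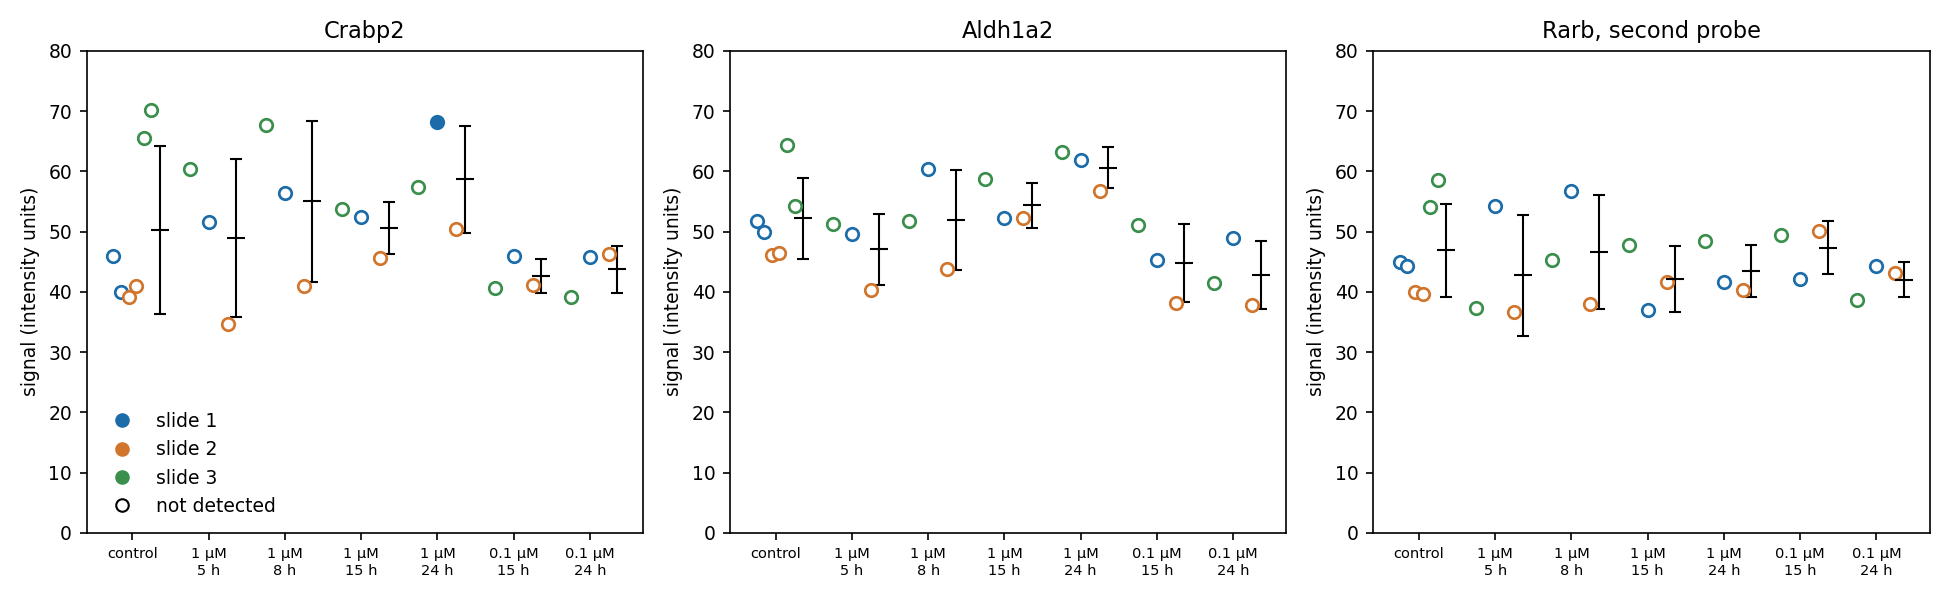
Signal (vertical axis, intensity units) of the probes of Crabp2, Aldh1a2 and the dimmer Rarb probe on the 24 arrays by group; points are arrays coloured by slide, filled where detected, and the bar is mean ± SD. A single point, Crabp2 at 1 µM 24 h with a signal of 68.1, is filled.

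Rarb, the receptor gene whose promoter window holds the repeat shown above, was lower at 1 µM than at 0.1 µM, where Cyp26b1 was higher. It has 2 probes. The brighter one was detected on 23 of 24 arrays with signals between 54.4 and 126.8, and the other, with signals between 36.6 and 58.5, was detected on none and gives no second reading. The results for Rarb thus rest on 1 dim probe.

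On the brighter Rarb probe the arrays at 0.1 µM 15 h read 126.8, 105.6 and 97.6, and those at 0.1 µM 24 h read 88.2, 99.7 and 68.6. The controls ran from 74.8 through a median of 78.45 to 125.3, the highest being control 5. At 1 µM the signals were 84, 74.9 and 54.4 at 5 h, 98.2, 90.3 and 64.4 at 8 h, 70, 74.4 and 72.2 at 15 h, and 84.2, 74.7 and 68.3 at 24 h. In signal every group thus overlapped the controls except 1 µM 15 h, whose highest array, 74.4, was just below the lowest control.

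After normalization Rarb was higher at 0.1 µM 15 h than in the controls by 0.75 ± 0.15, or 1.68-fold, and the groups no longer overlapped. Of all tested genes 14.3% did not overlap in this comparison. The slides gave 0.81, 0.70 and 0.74. The difference was 0.50 without background correction. In the authors' deposited ratios, which also differ in scaling, it was 0.47. At 0.1 µM 24 h the difference was 0.38 ± 0.15 with overlap, and 0.74, 0.11 and 0.29 by slide. At 1 µM it was -0.25, -0.04, -0.17 and -0.23 at 5, 8, 15 and 24 h, each ± 0.15, with overlap at each time.

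Between the doses Rarb was lower at 1 µM by 0.92 on the log2 scale at 15 h (-0.92 ± 0.17, 1.90-fold) and by 0.61 at 24 h (-0.61 ± 0.17, 1.53-fold). The arrays did not overlap at either time, which is common in these comparisons, as given above. By slide the differences were -0.78, -0.72 and -1.27 at 15 h and -0.86, -0.47 and -0.50 at 24 h. Without background correction they were -0.60 and -0.38.

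**Figure D4:**
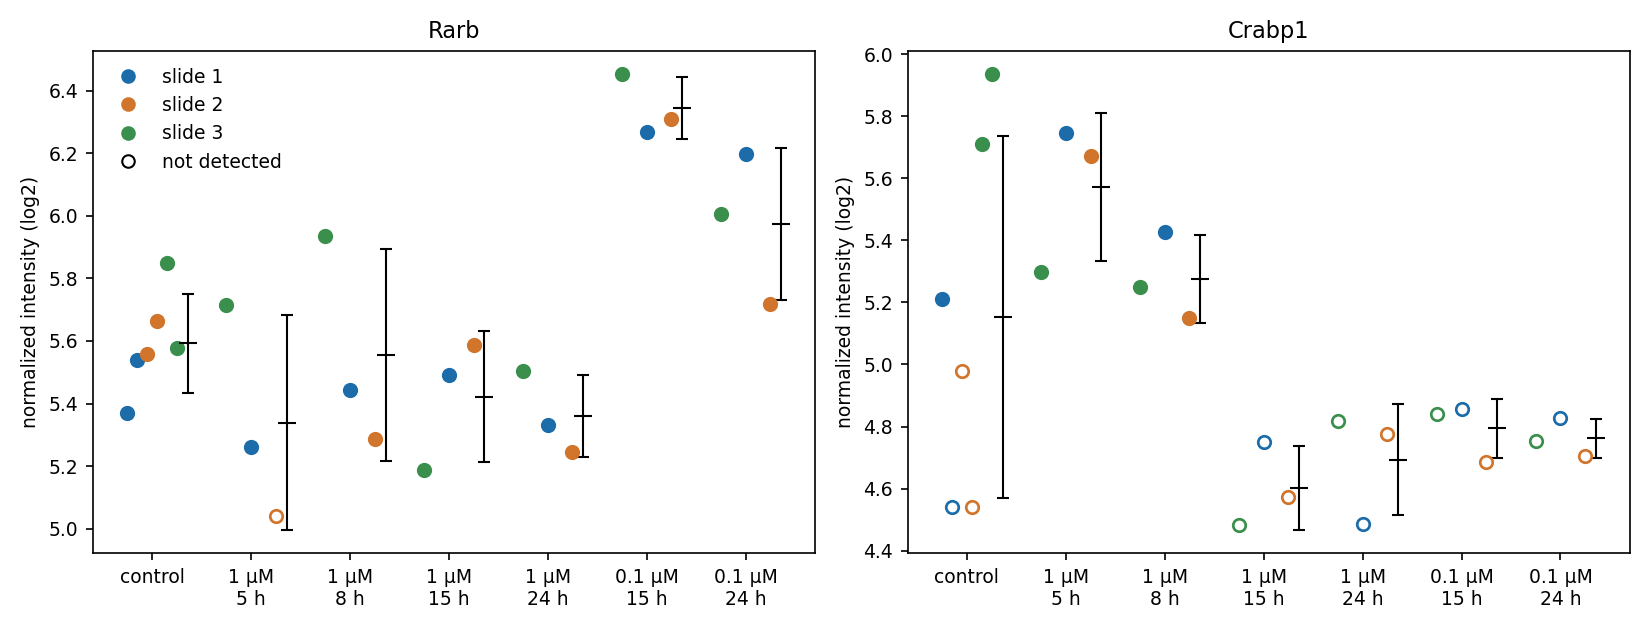
Normalized log2 intensity of the brighter Rarb probe (left) and of Crabp1 (right) on each array by group; points are arrays coloured by slide, open where not detected, and the bar is mean ± SD. Rarb is highest at 0.1 µM 15 h, and Crabp1 is open on all arrays at 15 and 24 h.

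The rest of the retinoid pathway was read from a list of 76 other genes, of which 73 had a probe and 38 were tested. A gene was called by limma at a Benjamini-Hochberg adjusted p under 0.05, and the background is the share of all tested genes called. At 1 µM no gene of the 38 was called at 5 h (9 at an unadjusted p under 0.05), where the background was 10.3% (6.19% higher, 4.08% lower). At 8 h 7 were higher and 5 lower (background 39.9%, with 20.1% higher and 19.8% lower). At 15 h 9 were higher and 13 lower (54.9%, with 27.2% and 27.7%), and at 24 h 8 and 9 (57.4%, with 26.7% and 30.7%). At 0.1 µM 6 were higher and 2 lower at 15 h (16.5%, with 8.54% and 8.01%). Rai14 alone was called at 24 h, lower (2.24%, with 0.697% higher and 1.54% lower). The list medians lay between -0.04 and 0.03 in these 6 comparisons, and those of all tested genes between -0.05 and 0.

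Some of these counts turned on single arrays. At 8 h of 1 µM 7 genes were called without replicate 3. At 0.1 µM 15 h the count was 3 without replicate 1, 4 without replicate 2 and 5 without control 1 or control 3. At 0.1 µM 24 h it was 0 without any 1 of its 3 arrays or without control 6, 3 without control 4 and 4 without control 2. At 5 h it was 1 without control 1, control 2 or replicate 1, 2 without control 5, 3 without control 6 and 5 without controls 5 and 6.

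Of 10 listed genes of uptake and storage 9 had probes and 3 were tested. Ttr, the carrier of retinol in blood and cerebrospinal fluid, rose at 0.1 µM 15 h (0.97 ± 0.23, adjusted p = 0.0065) and not at 24 h (-0.07). Ttr is named here after its values were seen, as are Rdh10, Ncoa3, Meis1 and Rai14.

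Of 19 genes of retinol and retinaldehyde conversion 7 were tested. Dhrs4, a short-chain reductase that acts on retinal, fell at 1 µM by 0.45 at 8 h, 1.21 at 15 h (-1.21 ± 0.13, adjusted p = 8.50e-08) and 1.06 at 24 h. At 0.1 µM it stood at 0.13 and -0.02 without passing the test. Rdh10, the enzyme known to make retinaldehyde from retinol in the embryo, rose at 1 µM by 0.83, 0.93 and 0.81 at 8, 15 and 24 h, each ± 0.17. At 0.1 µM 15 h it rose by 0.55 ± 0.17 (adjusted p = 0.0282). Across the group 4 of 7 were lower and 1 was higher at 1 µM 15 h (background 27.7% and 27.2%).

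Of the other genes that make or break down retinoic acid only Aldh1a7 was tested, and no comparison called it. Aldh1a1, Aldh1a3, Aldh8a1 and Cyp26a1 were too dim on these arrays. Of the 2 listed relatives of Cyp26b1 the other, Cyp26c1, had no probe.

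Among carriers and receptors 6 of 9 were tested. Fabp5, a fatty acid carrier that also binds retinoic acid, fell at 1 µM by 0.99 at 8 h, by 1.79 at 15 h (-1.79 ± 0.23, adjusted p = 7.16e-07) and by 1.62 at 24 h. Rxra, a partner of the retinoic acid receptors, was detected on no control and on all arrays at 1 µM 15 and 24 h. It was at least 1.54-fold higher at 15 h (adjusted p = 9.09e-10) and at least 1.69-fold higher at 24 h (adjusted p = 1.47e-10). Rxrg, detected on 5 of 6 controls, was on no array at those times and was at least 1.11 and 1.21-fold lower. Rxrb rose at 1 µM 8 h (0.59 ± 0.13, adjusted p = 0.00138) and at no other time tested.

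Nr2f1 and Nr2f2 encode orphan receptors that bind similar repeats. Nr2f1 fell at 1 µM 15 h (-0.85 ± 0.19, adjusted p = 6.00e-04) and 24 h (-0.56 ± 0.19, adjusted p = 0.0145). Nr2f2 was called at 0.1 µM 15 h (-0.38 ± 0.13, adjusted p = 0.0435), a call that 16 of 38 alternatives lost. The receptor genes Rara and Rarg did not pass the filter, so Rarb was the one retinoic acid receptor that could be followed. Of 8 tested coregulators 4 were higher and none was lower at 1 µM 15 h (background 27.2% and 27.7%), Ncoa3 by 0.87.

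Of 23 known or supposed targets of retinoic acid 13 were tested. Tgm2, a transglutaminase known as a target, rose at 0.1 µM 15 h (1.00 ± 0.18, adjusted p = 6.05e-04), at 1 µM 15 h (0.51 ± 0.18, adjusted p = 0.0214) and at 1 µM 24 h (0.94 ± 0.18, adjusted p = 1.35e-04). It was detected on 2 of 6 controls, so these sizes rest on control values mostly below background, and at 0.1 µM 24 h it stood at -0.20. At 1 µM 15 h 3 of the 13 were higher and 5 lower (background 27.2% and 27.7%), among them Meis1 at -0.62. At 0.1 µM 15 h 2 were higher and none was lower (8.54% and 8.01%). Rai14 was higher at 1 µM 8, 15 and 24 h (0.43, 0.50 and 0.53) and lower at 0.1 µM 24 h (-0.74 ± 0.17, adjusted p = 0.0311).

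**Figure D5:**
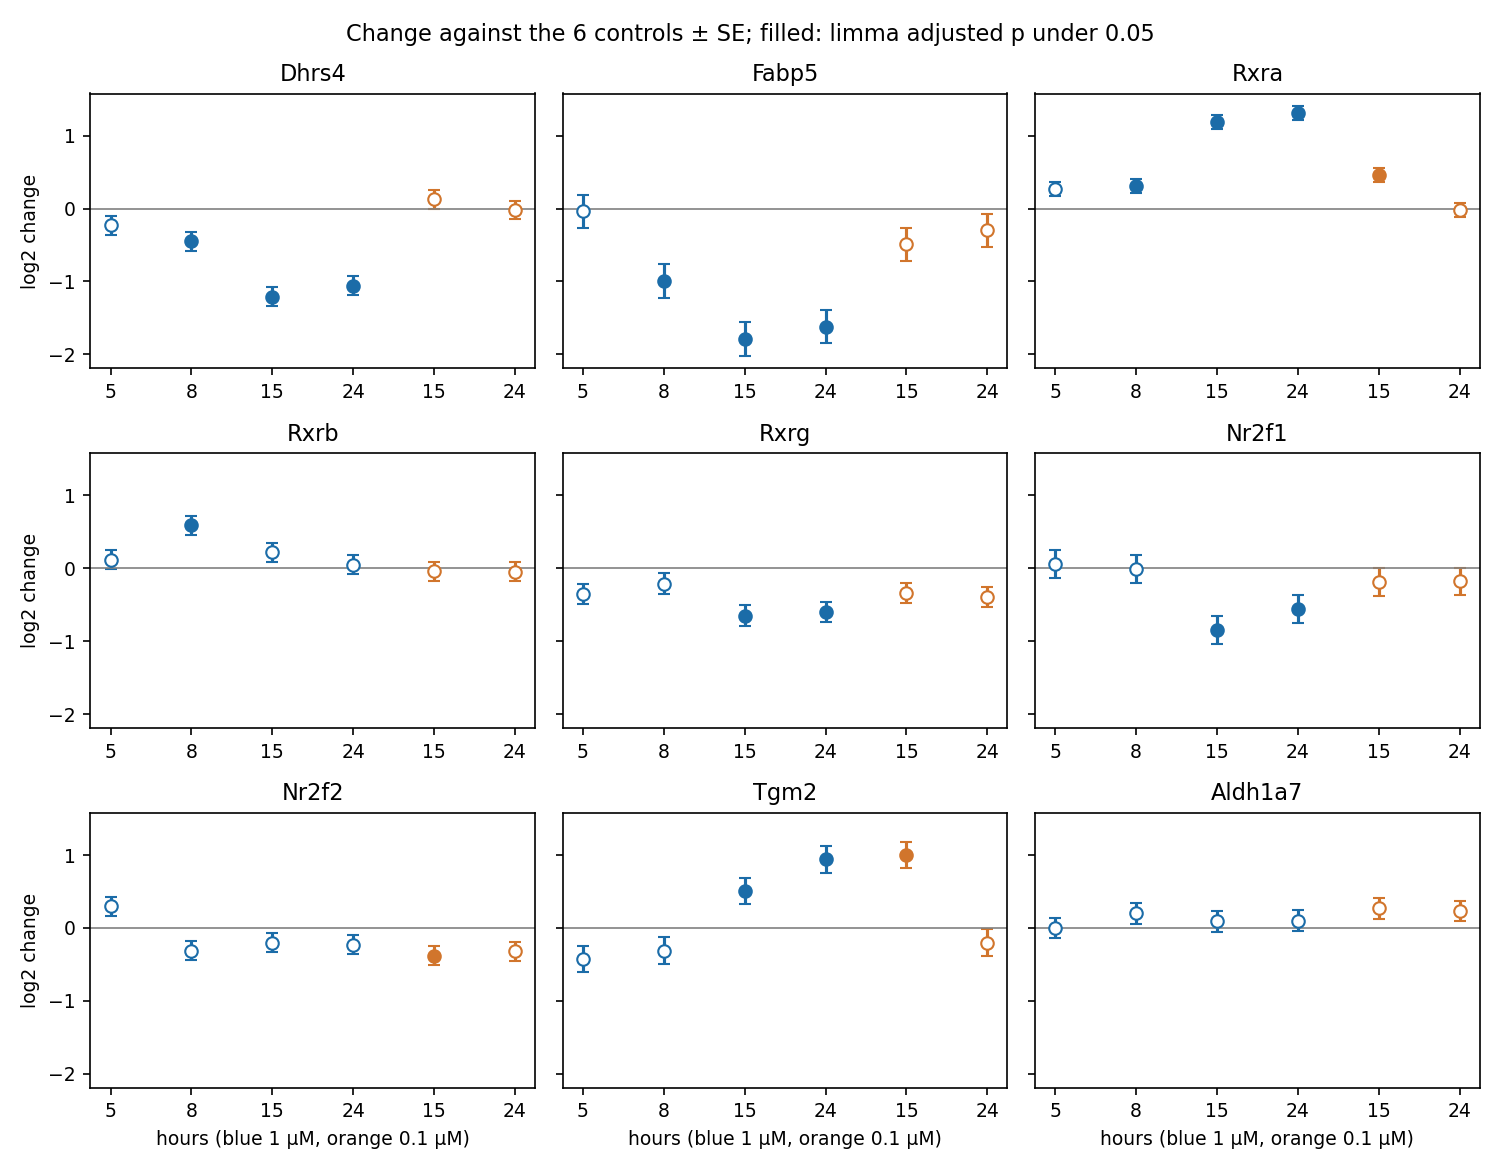
Log2 change against the 6 controls (vertical axis, estimate ± SE) of 9 other genes of the pathway at the hours on the horizontal axis, blue for 1 µM and orange for 0.1 µM; filled points have a limma adjusted p under 0.05. Fabp5 reaches -1.79 and Dhrs4 -1.21 at 1 µM 15 h, while at 0.1 µM both are open points.

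Between the doses 8 of the 38 pathway genes were higher and 11 lower at 1 µM than at 0.1 µM at 15 h (background 51.4%, with 26% and 25.4%). At 24 h 9 were higher and 6 lower (53.7%, with 26.7% and 27%). Dhrs4 was lower at 1 µM at 15 h (-1.34 ± 0.15, adjusted p = 2.08e-07, limma) and at 24 h (-1.04). Rxra at 24 h was at least 1.68-fold higher at 1 µM, and Tgm2 at least 1.70-fold, both detected on no array at 0.1 µM 24 h. The step from 15 to 24 h differed between the doses for 6 of the 38 genes (16.8% of all tested genes), 4 with a positive and 2 with a negative interaction (9.18% and 7.62%).

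The genes whose pattern over the 24 arrays was most like that of Cyp26b1 were Fam171b, Krt12 and Gbx2, with Pearson r of 0.929, 0.919 and 0.912. Among the 6 controls alone their r with Cyp26b1 was 0.837, 0.909 and 0.712. For Crabp1 they were Mcm5, Rgs2 and Elmo1 (0.918, 0.891 and 0.881 over 24 arrays, 0.999, 0.863 and 0.943 over the controls). For Rarb they were Hadh, 2010001J22Rik and S100a4 (0.861, 0.846 and 0.824), and over the controls alone r was -0.098, 0.254 and 0.508. The arrays share slides, normalization and group, so these values describe likeness over the same arrays and carry no p.

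Markers of other cells also moved at 0.1 µM, where Cyp26b1 was low. Of 12 listed markers of GABAergic interneurons 9 were tested, with 2 lower and none higher at 15 h (background 8.01% lower) and 3 lower at 24 h (1.54%). Among them Npy fell by 1.44 at 15 h (-1.44 ± 0.25, adjusted p = 3.54e-04), and its change at 24 h was -1.35 (adjusted p = 0.0115). The summed intensity of the 9 was 8936 to 10030 at 15 h and 8277 to 8639 at 24 h, against 9655 to 15930 in the controls. At 1 µM, where Cyp26b1 was not low, more of them were lower. There 7 were lower and 1 higher at 15 h (background 27.7% and 27.2%), and 6 lower and 1 higher at 24 h (30.7% and 26.7%). The sums at 1 µM were 5358 to 6304 at 15 h and 5793 to 5840 at 24 h. Among the markers too dim to test were Gad2 and Lhx6.

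Of 12 markers of striatal projection neurons 9 were tested, with 3 lower at 0.1 µM 15 h (background 8.01%) and 1 at 24 h (1.54%). For Isl1, detected on 4 of 6 controls, the changes were -0.95 and -1.1. The sums were 2009 to 2241 and 2408 to 2545, against 2088 to 3545 in the controls, while Drd2 and Adora2a were too dim. At 1 µM 4 of the 9 were lower and none higher at 15 h and again at 24 h (background 27.7% and 30.7% lower). The sums at 1 µM were 2196 to 2287 at 15 h and 2342 to 2432 at 24 h.

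Of 18 markers of meningeal fibroblasts 7 were tested, and at 0.1 µM 15 h 4 were higher and 1 lower (background 8.54% and 8.01%). Serpinf1 rose by 1.34 ± 0.20 and Dcn fell by 1.34 (-1.34 ± 0.25, adjusted p = 8.81e-04). The sums were 2027 to 2208 at 15 h and 1196 to 1261 at 24 h, against 1277 to 1686 in the controls. The defining genes Col1a1, Col1a2, Col3a1, Foxc1 and Foxc2 were too dim to test. Rarb, Ttr and Tgm2 were high in the same 0.1 µM 15 h arrays as Serpinf1. Serpinf1 also rose at 1 µM 15 h (1.25) and 24 h (1.15). Tgm2 rose there too, by 0.51 and 0.94, while Rarb stood at -0.17 and -0.23 and Ttr at -0.26 and -0.01.

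Of 8 astrocyte markers 6 were tested, and 4 were higher and none lower at 0.1 µM 15 h (background 8.54% and 8.01%), Gfap by 1.56 ± 0.35, with sums of 16450 to 18170 against 11960 to 18050 in the controls. Of 8 oligodendrocyte lineage markers 7 were tested. Their sums at 1 µM were 2663 to 2844 at 15 h and 4589 to 5032 at 24 h, against 10880 to 13390 in the controls. Dhrs4 and Fabp5 were low in those same arrays, and so were other cell markers. At 1 µM 15 h 7 of 9 interneuron markers and 4 of 6 astrocyte markers were lower (background 27.7%). Interneuron sums there were 5358 to 6304 and Cajal-Retzius sums 821.6 to 1040, against 1401 to 1868 for the latter in the controls. Astrocyte sums were 9785 to 10930, and those of cortical projection neurons were 4820 to 5318 against 5594 to 7139 in the controls. Markers of endothelial cells and pericytes (2 of 11 tested) and of microglia (4 of 8 tested) had no call at 0.1 µM, and of 6 Cajal-Retzius markers 2 were tested, with Calb2 lower at 0.1 µM 15 h. The part of any of these cell types in the retinoid results was not tested.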

How the data were processed

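RNA of 24 samples was read on 24 Illumina bead arrays. Per the file headers, BeadStudio 3.2.6 made the scanner table without normalization; it gives intensity per gene and a detection score, a fraction between 0 and 1. The authors also deposited probe intensity without normalization (24613 probes with values, the lowest 24.5), which was used here. The authors' normalized table and the series' value table hold a ratio on a linear scale: signal over array median, over the mean of the controls (recomputed within 1.87e-05). Any background step before deposit is not stated in the labels or headers. From the deposited intensity, log2 values were computed here.

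Deposited columns of treated replicates 1, 2 and 3 match scanner columns of the same group on slides 3, 1 and 2 (99.9% of 14487 genes within 1e-06), while controls match their own. Slides here are those of the matching scanner column, and groups are unaffected. Detection scores were carried to probes by a running median over 21 genes in order of signal.

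limma 3.58.1 in R 4.3.3 was used: nec (offset 16), quantile normalization, log2, probes detected at 0.01 on at least 3 arrays (13572), and the brightest kept probe per gene (10903 genes). A model of 7 group means with no block gave 9 contrasts with Benjamini-Hochberg adjustment in each (17 residual and 4.3 prior degrees of freedom). Symbols were updated through RefSeq accessions (20514 probes matched, 7147 changed symbol, 225 without symbol). Where 1 side was detected on no array, the fold is a bound against the lowest detected signal per array. Motifs were searched with a Python script, and the fit was tested on simulated data.

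Members and lists were chosen with earlier results of these data known. Named are all probes of the members, pathway genes called against controls with a change of at least 1, the tested enzymes, carriers and receptors, up to 4 markers per list with the largest change at 1 µM 24 h, and 3 like genes per member; some genes that the rule or the lists hold are counted but not reported here by name. Alternatives were other background steps, scalings, filters and probes, fits of fewer arrays, slides as blocks, weights per array, a robust variance trend and the authors' ratios. Deviations from group means correlated with a median of 0.252 between arrays of 1 slide (-0.073 to 0.44 over 81 pairs) and of -0.084 between arrays of different slides (-0.419 to 0.173). Arrays of 1 slide were thus more alike, but not in every pair, and the slide block was kept as an alternative.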

Additional observations from a re-analysis of the deposited data

Results flagged for a closer look

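On the normalized scale every Cyp26b1 value at 1 µM 15 and 24 h lay above the mean of the controls and every one at 0.1 µM below it. In signal 1 array of 1 µM 24 h, at 974, was below the control mean of 1092. The doses differed by 2.59 at 15 h and by 1.68 at 24 h on the log2 scale, and this opposition was not tested.

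For Rarb, on the normalized scale, every array of 1 µM at 15 and 24 h lay below the control mean and every array of 0.1 µM above it, with 1 array of 1 µM 15 h at 5.588 against a mean of 5.593. In signal 1 array of 0.1 µM 24 h, at 68.6, was below all controls. The dose difference was -0.92 at 15 h and -0.61 at 24 h, also not tested, on a probe close to background.

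For Rxra and Tgm2 the step from 15 to 24 h differed between the doses by the interaction term of limma. It was 0.61 for Rxra (adjusted p = 0.00954) and 1.64 for Tgm2 (adjusted p = 7.22e-04). At 0.1 µM Rxra was detected on 1 of 3 arrays at 15 h and on none at 24 h, and Tgm2 on none at 24 h, so both sizes rest in part on values at or below background. No control array stood apart from the other 5 by Dixon's criterion for Cyp26b1, Crabp1, the brighter Rarb probe or the pathway genes that the naming rule chose.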

How the results depend on the processing

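No called change of the pathway genes that the naming rule chose changed sign in an alternative. Of the members, near 0, Cyp26b1 at 1 µM 8 h ranged from -0.29 to 0.16 and Rarb at 1 µM 8 h from -0.23 to 0.1. Single changes of the other named genes were not followed through the alternatives. Among these are Ttr, Rdh10, Ncoa3, Meis1, Rai14 and the cell markers. Cyp26b1 at 0.1 µM stayed between -1.88 and -1.54 at 15 h and between -1.53 and -1.20 at 24 h over 14 alternatives, and between -1.86 and -1.42 and between -1.48 and -1.04 with single arrays left out. Rarb at 0.1 µM 15 h was 0.50 without background correction, 0.49 with offset 50 and 0.47 in the authors' ratios. The dose differences of Rarb were then -0.60, -0.58 and -0.62 at 15 h and -0.38, -0.37 and -0.35 at 24 h, and the cause was not tested. Median centring moved the median of all genes to -0.20 at 0.1 µM 24 h, -0.14 at 0.1 µM 15 h and -0.15 at 1 µM 24 h, and the authors' ratios to -0.11 at 0.1 µM 24 h.

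The count of pathway genes called at 5 h, 0 in the report, was 1 with cyclic loess, 1 with the replicate block by either slide numbering, 5 with array weights and 5 without controls 5 and 6. At 8 h 6 were called in a fit of only the groups compared and 18 with the replicate block by the slides of the scanner column (12 in the report). At 0.1 µM 15 h the count was 5 with no filter and 4 with only the groups compared. At 0.1 µM 24 h it was 3 with median centring, array weights or the authors' ratios, 2 with the replicate block by the labels' slides, and 0 with only the groups compared or without controls 5 and 6. The interaction count was 3 with median centring. With single arrays left out the counts ran from 0 to 3 at 5 h, 7 to 14 at 8 h, 3 to 11 at 0.1 µM 15 h and 0 to 4 at 0.1 µM 24 h. The split at 0.1 µM 15 h was 3 higher and 3 lower after median centring, 6 higher and 0 lower after cyclic loess and 4 higher and 2 lower in the authors' ratios (6 and 2 in the report). At 1 µM 24 h median centring gave 5 higher and 12 lower (8 and 9 in the report). The replicate block changed no other count by over 1.5 times. Nearness to background limits Crabp1, Rarb and Rxra, and leaves Crabp2 and Aldh1a2 without a measured change. It also limits the size for Fabp5 at 1 µM 15 h, -1.79 in the report and -1.16 with offset 50. With that offset Dhrs4 at 1 µM went from -1.21 to -0.76 at 15 h and from -1.06 to -0.68 at 24 h. Tgm2 at 0.1 µM 15 h went from 1.00 to 0.55.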
